A study of Mus musculus with 2 samples.

Results

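The genes described here are computationally predicted microRNA hairpins that still carry a provisional Gm symbol in the mouse gene annotation. They were chosen by name, as every gene of the deposited tables whose identifier has a symbol starting with Gm in GENCODE M21. From these the rule sets aside 9, by position or by single listing. The rule gave 834 of the 1973 genes in the tables, beside 1051 genes with an assigned Mir symbol and 79 without a symbol. Of the 9 set aside, 4 lie in a window on chromosome 12 and 5 are listed singly. Of these 9 genes, 7 lie opposite a microRNA of RefSeq, whereas 0 of the 834 genes described here do.

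The libraries are microRNA-seq of mouse hindbrain, the part of the brain that forms the cerebellum, pons and medulla, at embryonic day 15.5. There was 1 group with 2 biological replicates of strain B6NCrl, with no treatment named in the labels. Each was a pool of embryos of both sexes, 78 in replicate 1 and 62 in replicate 2, and the size range of the RNA is given as below 30 with no unit. Replicates could be compared only with each other, and no condition was tested against another.

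A microRNA is cut from a hairpin in its primary transcript by the Microprocessor, which holds Drosha and Dgcr8, and then by Dicer. The mature strand guides Argonaute to messenger RNAs through its seed, bases 2 to 8. Gene prediction finds hairpins by sequence likeness to known microRNAs and by folding, so copies of repeated sequence can be annotated as microRNA genes whether or not small RNA is made from them. The Gm symbols are placeholders of the mouse nomenclature for gene models without an approved name.

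Most of the reads on these genes fell on a small family of near-identical short hairpins, shown first because they are copies of one another. They are printed 5′ to 3′ from the GENCODE M21 transcripts on build mm10 (GRCm38), with the longest exact stretch that each shares with Gm23935 in capitals. Gm23935 lies at chr16:11144125-11144181 on the plus strand, Gm24245 at chr4:139338304-139338360 on the plus strand, Gm24270 at chr9:56223715-56223771 on the minus strand, Gm24187 at chr13:9834469-9834525 on the minus strand, Gm23388 at chr8:85112012-85112068 on the minus strand and Gm25911 at chr1:167340369-167340424 on the minus strand.
Gm23935: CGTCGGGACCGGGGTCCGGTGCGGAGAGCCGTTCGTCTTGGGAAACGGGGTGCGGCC
Gm24245: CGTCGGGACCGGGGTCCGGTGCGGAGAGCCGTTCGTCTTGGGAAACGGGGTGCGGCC
Gm24270: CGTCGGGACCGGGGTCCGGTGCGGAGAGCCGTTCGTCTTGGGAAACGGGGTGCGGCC
Gm24187: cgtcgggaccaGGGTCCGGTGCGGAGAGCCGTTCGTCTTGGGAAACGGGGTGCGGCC
Gm23388: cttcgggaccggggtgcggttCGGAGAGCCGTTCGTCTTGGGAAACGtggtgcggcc
Gm25911: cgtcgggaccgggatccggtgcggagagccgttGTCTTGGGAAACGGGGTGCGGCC

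The second most-read gene, Gm23450, is the hairpin that RefSeq (GRCm38.p6) lists for miR-935, at chr7:3415066-3415156 on the plus strand. The whole hairpin is printed with the mature sequence in capitals.
Gm23450 hairpin: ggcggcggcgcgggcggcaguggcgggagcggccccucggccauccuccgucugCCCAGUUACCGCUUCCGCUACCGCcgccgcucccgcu

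RefSeq listed a microRNA for 8 of the 834 genes, with 13 mature sequences between them, and none for the other 826. Mature sequences of these 8 are printed with the seed in capitals, together with those of 5 microRNAs that recur whole in many of the other predicted genes. The former are the members with an assigned product, and the latter are the mature sequences held whole by the most predicted genes, 195 of the 834.
miR-935 (Gm23450): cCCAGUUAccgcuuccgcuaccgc
miR-3618-5p (Gm24572): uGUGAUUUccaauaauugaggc
miR-3618-3p (Gm24572): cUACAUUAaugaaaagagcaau
miR-3552 (Gm22650): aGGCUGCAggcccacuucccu
miR-3154 (Gm23363): cAGAAGGGgagucgggagcgga
miR-1271-5p (Gm24195): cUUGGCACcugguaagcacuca
miR-1911-5p (Gm24627): uGAGUACAgccaugucuguuggg
miR-6967-5p (Gm27740 and Gm27775): cAGGGAGGgauaaagaccagu
miR-680: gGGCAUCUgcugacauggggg
miR-3471: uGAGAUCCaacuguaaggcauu
miR-3470b: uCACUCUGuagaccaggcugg
miR-3473b: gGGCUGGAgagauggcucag
miR-690: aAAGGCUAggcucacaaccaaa

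Both libraries were deep, with 8327917 reads in replicate 1 and 10507754 in replicate 2. Of these, 3937840 and 4839647 were counted on the own strand of a gene in the tables. Reads placed at several loci, which the tables list apart from the genes, made up 35.4% and 34.2% of all reads. Levels are in CPM, a gene's reads per 1e6 own-strand gene reads of the library. For a gene at 0, counting error leaves room for 3 reads, which is 0.762 CPM in replicate 1 and 0.62 CPM in the deeper replicate 2. This limit holds only where a gene has no copy elsewhere. The labelled tissue was checked on marker microRNAs: 8 of 9 brain genes are listed in the tables, 5 of them with 10 reads or more in both libraries, and summed to 11755 and 13413 CPM. Most of that brain sum was Mir137, with 31147 and 42643 reads, or 8360 ± 637 CPM (SD, n = 2). All 6 genes of the Hox clusters are listed, 4 of them with 10 reads or more in both, and summed to 92090 and 132296 CPM. Among other cell types, genes of blood summed to 397 and 283 CPM, the endothelial Mir126a to 25702 and 22600 CPM, and choroid plexus genes to 4378 and 5665 CPM. Of striated muscle, 3 of 4 genes are listed, with 27.2 and 23.3 CPM and with Mir1a-1 and Mir133a-1 at 0, and the liver gene Mir122 had 35.6 and 57.0 CPM. Several marker symbols, Mir1a-1 and Mir133a-1 among them, carry a copy number. Where copies share a mature sequence, the counts can miss its reads. The sums therefore do not rank cell types, and the 0 counts of such genes set no limit. The part of these other cell types in the reads at the predicted genes was not tested.

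Few reads were counted at the predicted genes in both libraries, although the counts can miss reads of the many that have copies elsewhere. Together they held 686 own-strand reads in replicate 1 and 1127 in replicate 2. Their share of own-strand gene reads was 0.0174% (95% exact interval 0.0161 to 0.0188) and 0.0233% (0.0219 to 0.0247), with a mean of 0.0204% ± 0.00415 (SD, n = 2). Such intervals cover counting error only, since reads without molecular identifiers are not independent molecules.

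At least 1 own-strand read in either library was found at 42 of the 834 genes (5.04%), against 675 of the 1051 Mir-named genes (64.2%). No read on either strand was found at 788 of the 834. In both libraries, 25 genes were read, while 8 were read in replicate 1 alone and 9 in replicate 2 alone. The highest count of a gene read in 1 library alone was 3. At least 10 reads in both libraries were found at 4 of the 834 genes (0.480%), against 368 of the Mir-named genes (35.0%).

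Reads were held by very few of these genes. The 5 most-read genes held 87.8% of them in replicate 1 and 91.4% in replicate 2, and Gm23935 alone held 66.9% and 76.6%. Without Gm23935 the remaining 833 genes had 227 and 264 reads. By mean CPM, 188 genes of the tables, all with Mir symbols, lay above Gm23935, and 275 genes lay above Gm23450.

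**Figure D1:**
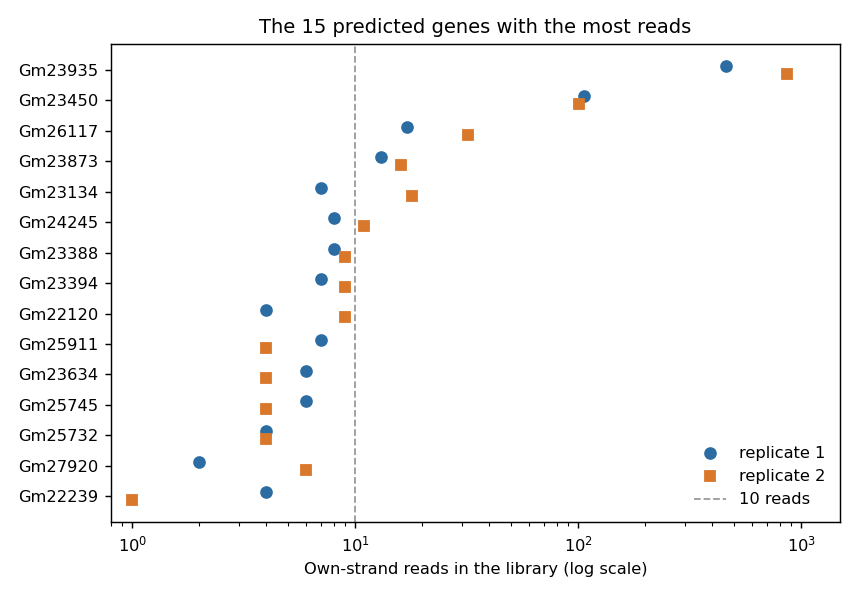
Own-strand reads (log axis) in replicate 1 (circles) and replicate 2 (squares) of the 15 predicted genes with the highest mean CPM, with a dashed line at 10 reads. Gm23935, with 459 and 863 reads, lies far to the right of the others, and only the first 4 genes lie beyond the line in both libraries.

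Gm23935 (ENSMUSG00000076258.1) lies within an intron of Zc3h7a, a zinc finger protein gene, on the strand opposite to it. It had 459 reads in replicate 1 and 863 in replicate 2, and 0 on the opposite strand in both. These are 117 and 178 CPM, with a mean of 147 ± 43.7 CPM (SD, n = 2). No other predicted gene was above 26.9 CPM in a library.

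Its identical copies were read far less. Gm24245, in no other gene, had 8 and 11 reads, and Gm24270, in an intron of Peak1, which encodes a pseudokinase, had 1 and 3. The relatives Gm24187, which shares 46 nt with Gm23935, Gm23388, which shares 26 nt, and Gm25911, which shares 23 nt, had 1 and 2 reads, 8 and 9 reads, and 7 and 4 reads. All 6 genes of the family were therefore read in both libraries, on 6 different chromosomes.

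The family held 484 reads in replicate 1 and 892 in replicate 2, or 70.6% and 79.1% of all reads on the predicted genes. The 828 genes outside it held 202 and 235. A read that lies wholly within the 57 nt would match all 3 identical copies. The counts do not record where in a gene a read lies, so how reads came to be counted at one copy rather than another was not tested. Copies outside the annotated microRNA genes, ribosomal RNA repeats included, and the sequence that flanks the 6 genes were not examined here. Whether the reads of this family, most of those on the predicted genes, came from these loci was therefore not tested.

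A further gene, Gm25732 (chr4:139338206-139338265, plus strand), starts upstream of Gm24245 on the same strand with 38 nt from its end to the start of Gm24245. It had 4 reads in each library. Its neighbour, the copy Gm24245, was the more read of the pair in both libraries.

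Gm23450 (ENSMUSG00000094210.1), the miR-935 hairpin, lies in a coding exon of Cacng8, which encodes an auxiliary subunit of AMPA-type glutamate receptors. It had 106 reads in replicate 1 and 101 in replicate 2, or 26.9 and 20.9 CPM (23.9 ± 4.28, SD, n = 2). All lay on its own strand. The gene shares no stretch of 20 nt or more with another microRNA gene. In such an exon, reads from the host messenger RNA and reads from the hairpin cannot be told apart in these counts.

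Gm26117 (ENSMUSG00000093340.1, chr15:74563821-74563915, plus strand) lies in an untranslated exon of Adgrb1, an adhesion G protein-coupled receptor of the brain. It had 17 and 32 reads, or 5.46 ± 1.62 CPM (SD, n = 2). Its sequence was 91.6% G and C, the highest among the 42 genes with a read.

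Gm23873 (ENSMUSG00000093170.1, chr7:61750468-61750537, minus strand) lies in an intron of A230057D06Rik, a long noncoding RNA gene that also holds 7 Mir-named genes. It had 13 and 16 reads, or 3.30 ± 0.00334 CPM (SD, n = 2), the closest match between libraries among the 6 genes with 10 reads in a library. The nearest Mir-named gene, Mir344h-2, at a distance of 8042 nt, had 0 reads in both.

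Gm23134 (ENSMUSG00000077990.1, chr2:157562361-157562447, minus strand) lies in an intron of Blcap and opposite an untranslated exon of Nnat, an imprinted gene of neurons. It had 7 reads in replicate 1 and 18 in replicate 2 on its own strand, and 3 and 5 on the opposite strand. It was the only gene of the 6 with reads on both strands.

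Of the remaining genes among the 15 highest, 4 lie in exons on the same strand as the host. Gm23394 (chr12:55821063-55821153, minus strand), in an untranslated exon of Ralgapa1, a regulator of Ral GTPases, had 7 and 9 reads. Gm23634 (chr4:134468364-134468454, plus strand), in an untranslated exon of Stmn1, a regulator of microtubules, had 6 and 4 reads. Gm25745 (chr10:86705316-86705448, minus strand), in an exon of the chaperone gene Hsp90b1, also had 6 and 4.

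Each of these exonic genes had single-digit counts in both libraries. The fourth, Gm27920 (chr10:123196876-123196971, minus strand), in an exon of the deubiquitinase gene Usp15, had 2 and 6 reads. Gm22120 (chr12:105865724-105865793, minus strand), opposite an intron of the noncoding gene Gm48807, had 4 and 9, and Gm22239 (chr2:10510461-10510563, plus strand), in an intron of Sfmbt2, had 4 and 1. The 15 highest genes together held 658 and 1091 reads, leaving 28 and 36 for the 27 others with a read.

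Of the most-read genes, 3 held most of the mature sequence of a known microRNA encoded elsewhere. The stretch is shown in capitals, with 3 flanking nt of the predicted gene on each side, because a read within it matches both genes. The window in Gm23134 lies at chr2:157562402-157562429, that in Gm23873 at chr7:61750507-61750531 and that in Gm22120 at chr12:105865762-105865788, all on the minus strand.
Gm23134: tccAGGAGCTTACAATCTAGCTGGGgag
miR-708-5p: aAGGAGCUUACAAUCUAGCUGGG
Gm23873: atcAGTCAGGCTGCTGGCTATAttc
miR-344d-1-5p: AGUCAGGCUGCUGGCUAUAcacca
Gm22120: gacTCCTAACAGCAGGAGTAGGAGatg
miR-3098-5p: UCCUAACAGCAGGAGUAGGAGc

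Gm23134 shared 22 of the 23 nt of miR-708-5p. Mir708 itself, on chromosome 7, had 9429 and 11110 reads, or 2345 ± 69.9 CPM (SD, n = 2), against the 7 and 18 reads of Gm23134. Gm22120 shared 21 of the 22 nt of miR-3098-5p, whose gene Mir3098 had 6 and 2 reads. Gm23873 shared 19 of the 24 nt of miR-344d-1-5p, whose gene Mir344d-1 had 0 reads in both. By these counts the predicted gene was the less read for miR-708 and the more read for miR-344d-1. For miR-3098 the order differed between libraries. The counts can miss reads that match several loci, so they do not rank the genes' levels. Another predicted gene, Gm26219, also holds the whole of miR-3098-5p. MiR-344d-3p, also of Mir344d-1, is held whole by Gm23490 and Gm23962.

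Among the 8 genes with a RefSeq entry, 3 had an own-strand read, 5 had none on either strand, and 1, Gm23450, had 10 or more in both libraries. These genes, and the others named from here to the account of the libraries' difference, were chosen by annotation or after their values were seen, except those already named. Gm24572, in an untranslated exon of Dgcr8, which encodes the RNA-binding subunit of the Microprocessor itself, had 2 and 1 reads. Mir1306, on the same strand with a gap of 232 nt, had 688 and 812 reads. Gm22650, in an intron of the serotonin receptor gene Htr2c, had 1 and 3 reads.

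The genes of miR-3154 (Gm23363), miR-1271 (Gm24195), miR-1911 (Gm24627) and miR-6967 (Gm27740 and Gm27775) were at 0 in both libraries. Of their seeds, that of miR-1271-5p is shared with miR-96-5p, and that of miR-6967-5p with miR-149-3p, miR-1943-5p and miR-7016-5p. Gm27740 and Gm27775 are identical copies, in introns of Kifc1 and Kifc5b, so a read of either would match both loci.

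Much of the set consists of copies. A stretch of at least 20 nt was shared with a microRNA gene elsewhere by 699 of the 834 genes (83.8%), and 180 of these were present elsewhere over their whole length. Exactly the same sequence occurred in 2 or more of the predicted genes in 40 cases, which took in 172 genes. The largest such set had 27 copies of 121 nt on 12 chromosomes, and the next had 18, 16 and 15 copies. Of the 40 sets, 39 had no own-strand read at any copy, and the exception was Gm23935 with its copies.

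A whole mature sequence of another gene was present in 227 of the predicted genes. Of these, 1 had an own-strand read: Gm22133 (chr7:45458089-45458197, minus strand), in an exon of the ferritin gene Ftl1, which holds miR-692 and had 2 and 0 reads. MiR-680 was present in 83 genes on 20 chromosomes, of 82 to 111 nt, and miR-3471 in 50 genes on 14 chromosomes. MiR-3470b was present in 42 genes, miR-3473b in 15 and miR-690 in 15.

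In all, 195 genes held at least 1 of these 5 microRNAs, and none of the 195 had an own-strand read. The Mir-named genes of the same 5 microRNAs were also at 0 in both libraries. The tables list multiply placed reads in a row of their own, and no source used here says how they were handled. If they were given to no gene, as the layout implies, a count of 0 at such copies sets no limit on their level.

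**Figure D2:**
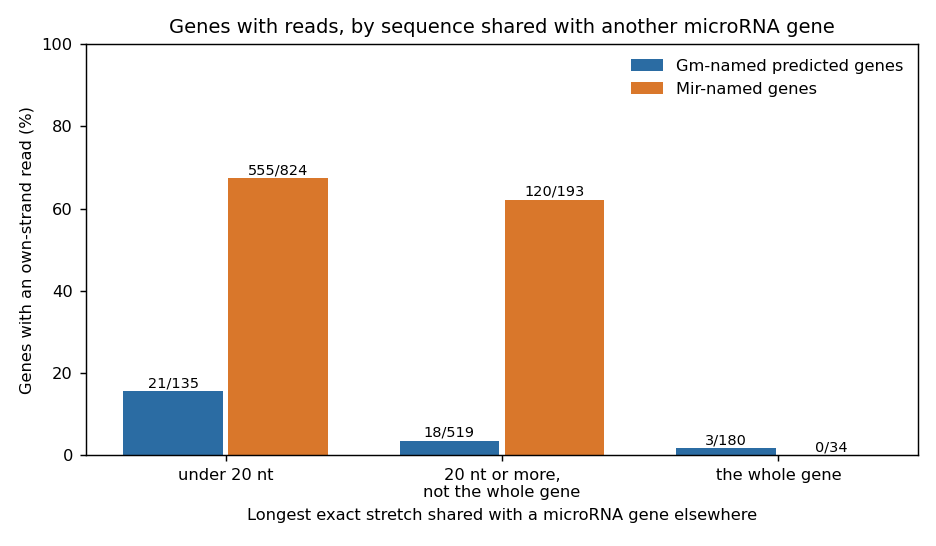
Share of genes with at least 1 own-strand read in either library (percent), by the longest exact stretch shared with a microRNA gene elsewhere, for Gm-named predicted genes and Mir-named genes, with counts above the bars. Reads were found at 21 of 135 predicted genes that share under 20 nt and at 3 of 180 that are present elsewhere as a whole, while Mir-named genes stood at 67.4% and 62.2% in the first 2 classes and at 0 of 34 in the last.

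Own-strand reads were found at 21 of the 135 predicted genes that share under 20 nt (15.6%), at 18 of 519 that share more but not all (3.47%), and at 3 of 180 whole copies (1.67%). The same classes of Mir-named genes gave 555 of 824 (67.4%), 120 of 193 (62.2%) and 0 of 34. Copies outside the annotated microRNA genes were not searched, so the class that shares under 20 nt can still hold sequences with copies elsewhere. These shares are descriptions of 2 libraries and were not tested.

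The predicted genes with reads were mostly in transcribed sequence of other genes. Reads were found at 18 of 103 genes in an exon of another gene on the same strand (17.5%) and at 14 of 217 in a same-strand intron (6.45%). They were found at 2 of 23 opposite an exon (8.70%), at 4 of 125 opposite an intron (3.20%) and at 4 of 366 in no other gene (1.09%). Genes in same-strand exons held 159 and 168 reads, those in same-strand introns 39 and 64, and those in no other gene 20 and 21. Genes opposite an intron held 467 and 873, nearly all of them at Gm23935. The Gm23935 family also weighs on other positions. Those read in no other gene were its copies or relatives Gm24245, Gm25911 and Gm24187, and Gm25732 beside Gm24245. Its genes Gm23388 and Gm24270 are among those in same-strand introns.

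**Figure D3:**
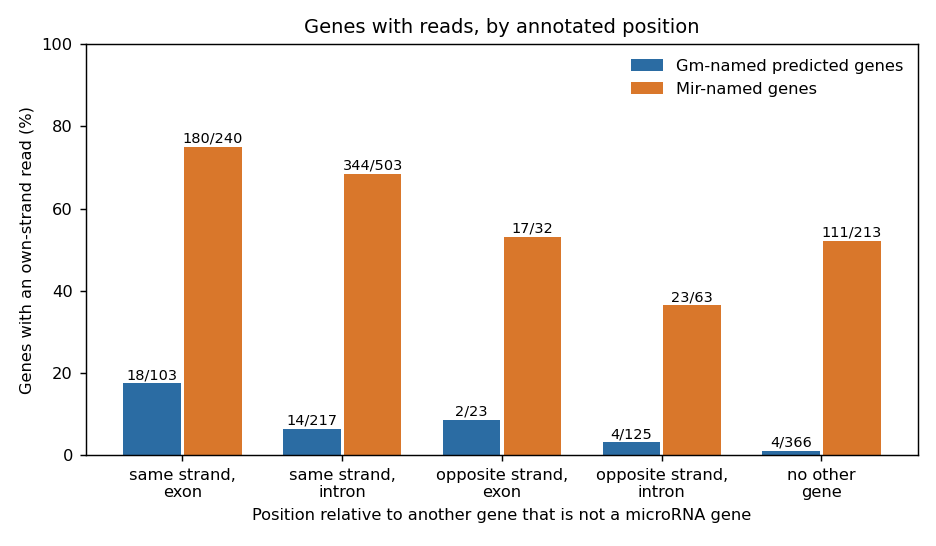
Share of genes with at least 1 own-strand read in either library (percent), by position relative to a gene that is not a microRNA gene, for Gm-named predicted genes and Mir-named genes, with counts above the bars. Predicted genes ranged from 4 of 366 in no other gene to 18 of 103 in same-strand exons, and Mir-named genes from 23 of 63 opposite an intron to 180 of 240 in same-strand exons.

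Position and shared sequence moved together. A shared stretch of 20 nt or more was present in 89.9% of the genes that lie in no other gene and in 68.9% of those in same-strand exons. Among genes that share under 20 nt, reads were found at 13 of 32 in same-strand exons (40.6%), at 4 of 31 in same-strand introns (12.9%) and at 1 of 37 in no other gene (2.7%). At the other positions, reads were found at 2 of 16 such genes opposite an exon (12.5%) and at 1 of 19 opposite an intron (5.26%). Opposite an exon, 30.4% of the genes share 20 nt or more, and their share with reads lay above that of same-strand introns over all genes but below it among those that share under 20 nt. These counts are small, and no difference between positions was tested. How much of the exonic reads came from the host transcripts was not tested.

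Other hosts of genes with few reads included Gria2, a subunit gene of AMPA receptors, whose exon holds Gm25749 (chr3:80692203-80692313, minus strand, 0 and 3 reads). Gm27486 (chr5:124425510-124425589, minus strand), in an exon of Sbno1, had 3 and 2. Gm24589 (chr17:24594978-24595071, plus strand), in an intron of Pkd1, the polycystin gene, had 1 and 3. None of these counts passed 3 in a library.

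The host with the most predicted genes was Sfmbt2, an imprinted gene of the Polycomb group whose large intron holds the miR-466, miR-467 and miR-669 hairpins. It holds 48 of the 834 genes, between positions 10465287 and 10517426 of chromosome 2. Of these 48, 7 had a read, with 5 and 12 reads in all, and 47 share a stretch of 20 nt or more with another microRNA gene. The 59 Mir-named genes in the same stretch of Sfmbt2 included 21 with a read, with 21370 and 25543 reads in all.

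Both kinds of gene also lie in other hosts, with too few of each to compare. In A230057D06Rik, 1 of 4 predicted genes was read, with 13 and 16 reads, and 4 of 7 Mir-named genes had 62 and 54 together. In Htr2c, 1 of 2 predicted genes was read, with 1 and 3 reads, and all 5 Mir-named genes were read, with 10989 and 17958 together. In B4galt1, 2 predicted genes and 1 Mir-named gene were all at 0. Mir764, at a distance of 2749 nt from Gm22650, had 27 and 29 reads.

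A Mir-named gene lies within 10 kb of 72 of the predicted genes, and 11 of these 72 had a read. The 87 Mir-named genes at that distance included 41 with a read, and 0 of them overlap a predicted gene.

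Base composition and predicted folding also differed between genes with and without reads. The 42 genes with an own-strand read had a median of 67.2% G and C, against 50% in the 792 without one, and a median length of 91 nt against 102 nt. The minimum free energy that RNAfold predicts, per 100 nt, had a median of -39.1 kcal/mol in the former and -31.8 kcal/mol in the latter. Mir-named genes with reads had medians of 52.7% G and C, 80 nt and -42.9 kcal/mol per 100 nt, so the predicted genes with reads were richer in G and C than those. Mir-named genes without reads had medians of 49.1% G and C, 86.5 nt and -37.6 kcal/mol per 100 nt. The direction of all 3 contrasts was thus the same in both kinds of gene. Genes that are copies of each other share these values, and the differences were not tested.

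**Figure D4:**
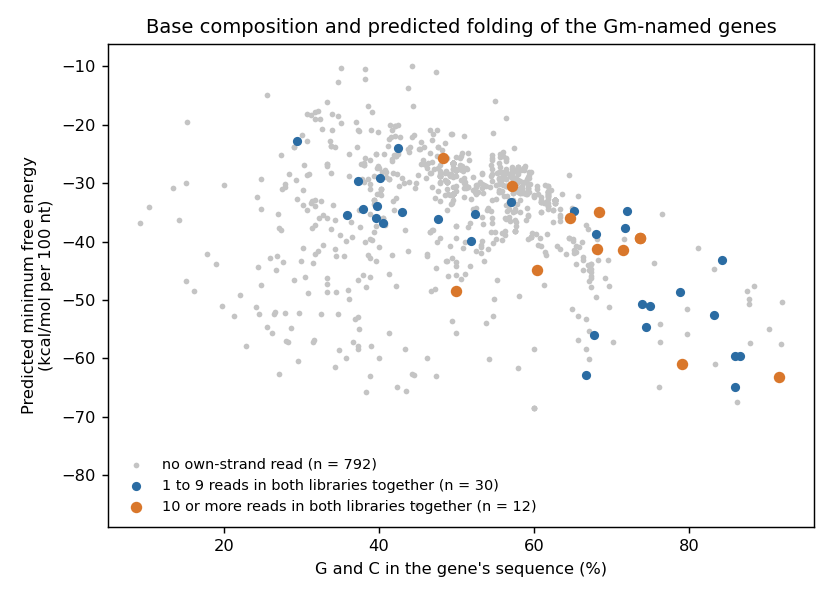
Share of G and C (percent) and predicted minimum free energy (kcal/mol per 100 nt) of the 834 predicted genes, by own-strand reads in both libraries together: none (792 genes), 1 to 9 (30 genes) or 10 and more (12 genes). Genes with reads lie mostly toward the right, up to 91.6% G and C for Gm26117, and unread genes cover the whole range.

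Reads on the opposite strand of the genes described here were few. They made up 7 of 693 reads at the predicted genes in replicate 1 (1.01%, 95% exact interval 0.407 to 2.07) and 9 of 1136 in replicate 2 (0.792%, 0.363 to 1.50), a mean of 0.901% ± 0.154 (SD, n = 2). At Mir-named genes the share was 0.126% and 0.111%. The 9 genes set aside by the rule held 84289 and 98009 opposite-strand reads, against 3 and 1 on their own strand. The low share therefore describes the genes that the rule kept, and not all Gm-named genes. The 16 reads fell on 5 genes, and 4 of these 5 had reads on the opposite strand only.

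Gm23134, already described, had 8 of the 16. Gm24513 (chr1:63273226-63273363, minus strand), opposite an untranslated exon of the imprinted gene Zdbf2, had 1 and 3. Gm24970 (chr17:31564962-31565043, minus strand) had 2 and 0, Gm23222 (chr5:100500143-100500218, minus strand), in an intron of Lin54, had 1 and 0, and Gm24157 (chr11:52099043-52099153, minus strand) had 0 and 1. Gm24157 also lies opposite an exon, of the phosphatase gene Ppp2ca. The opposite-strand reads at Gm23134, Gm24513 and Gm24157 are thus on the strand of an exon of a protein-coding gene, a description of genes with few reads.

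Counts of 10 or more in a library were reached by 6 of the 834 genes, and these could be compared between the libraries. The test was exact and binomial, after TMM scaling (a library factor that centres the genes' ratios), with Benjamini-Hochberg adjustment over 426 genes. With 1 library on each side, it says how far the pair differs beyond counting error and nothing about replicate spread. Gm23935 passed the threshold, 1 of the 6, while among all 426 genes tested 35.9% passed it, 15.3% as higher in replicate 2 and 20.7% as lower. The call of 1 member therefore reads against a background in which such calls were common. Gm23134 and Gm24245 entered the test through replicate 2 alone, and no summary over the 6 is drawn.

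Gm23935, at 459 and 863 reads, was higher in replicate 2 by 0.60 on the log2 scale (95% exact interval 0.43 to 0.76), a 1.51-fold difference (adjusted exact binomial p = 2.86e-12). When a coefficient of variation of 0.1 between replicates was assumed in edgeR's exact test, its adjusted p was 0.236, with 1.41% of all genes called. At a coefficient of variation of 0.2 its adjusted p was 1, with 0 of 426 genes called. In pooled tissue, a difference in the number of cells and one in RNA per cell cannot be told apart. Whether the reads came from the Gm23935 locus was not tested, and no cause of the difference was tested.

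Gm23450, at 106 and 101 reads, differed by -0.38 (-0.79 to 0.02, adjusted exact p = 0.134). Gm26117, at 17 and 32 reads, differed by 0.60 (-0.29 to 1.54, adjusted exact p = 0.346), the same ratio as Gm23935 with a much wider interval. Gm23873 differed by -0.01 (-1.16 to 1.16, adjusted exact p = 1). Gm23134 differed by 1.05 (-0.28 to 2.55, adjusted exact p = 0.220) and Gm24245 by 0.15 (-1.30 to 1.66, adjusted exact p = 1), so none of these 5 differed detectably at this depth.

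**Figure D5:**
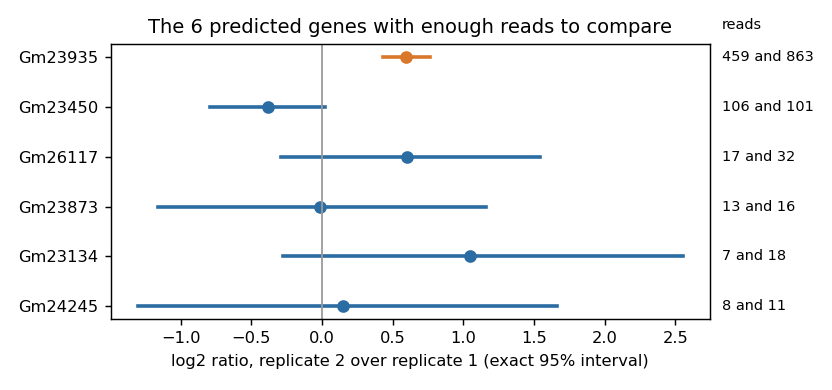
Log2 ratio of replicate 2 over replicate 1 after TMM scaling, with exact 95% intervals, for the 6 predicted genes compared, with their reads in each library at the right. The interval of Gm23935 alone lies wholly above 0, and those of the other 5 genes include 0.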

How the data were processed

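The authors deposited raw read counts per gene, 1 table for each library. The build is mm10 per the labels, and the annotation is GENCODE M4 per the deposited notes. Trimming, aligner and counter: not given in the sources used here. The tables have no header. Each gene row holds 3 counts, the first being the sum of the other 2. The own strand was taken to be whichever of the latter had the larger total. The layout resembles STAR's gene counts, which give no gene a multiply placed read, but no label names that tool. Rows that name no gene (several loci 35.4% and 34.2% of all reads, unmapped 13.7% and 15.8%, outside genes 2.56% and 2.96%, ambiguous 0) were left out.

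Symbols, positions and hairpin sequences came from GENCODE M21 by identifier without version, and mature sequences from RefSeq (GRCm38.p6). Shared stretches of at least 20 nt were searched on both strands among M21 microRNA genes only, since no genome sequence was used. Folding used RNAfold 2.7.2. CPM is own-strand reads scaled to the own-strand gene total. The libraries were compared with TMM factors (edgeR 4.0.16, R 4.3.3) and an exact two-sided conditional binomial test over 426 genes (10 reads or more in at least 1 library), adjusted by Benjamini-Hochberg, threshold 0.05. The test was checked on counts simulated with counting error only, so the check does not cover spread between replicates. Shares have exact Clopper-Pearson 95% intervals. DESeq2 1.42.0 size factors, total counts, other minimums, both strands together and edgeR's exact test with an assumed spread were alternatives. Python 3.11.15, numpy 2.4.6, scipy 1.17.1 and matplotlib 3.10.9 were used.

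Named by rule were the 15 genes with the highest mean CPM, up to 10 with the most opposite-strand reads (5 had any), those past the threshold, and those with 10 reads in a library that overlap a Mir-named gene (0). The genes and lists were chosen with earlier results of these data known. The replicates are separate pools of embryos.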

Additional observations from a re-analysis of the deposited data

How the results depend on the processing

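No paired analysis was possible because both libraries belong to 1 group. The number of predicted genes called between the libraries was 1 in the main analysis and also with DESeq2 size factors, total counts, both strands together, and minimums of 1 or 50 reads. It was 0 with edgeR's exact test at an assumed coefficient of variation of 0.1 (1 gene, Gm23935, at an unadjusted p under 0.05) and 0 at 0.2 (0 genes). Of 20 alternative ratios of the 6 genes, which leave out edgeR's exact test, 18 kept their direction. No call changed among these 20, whereas edgeR's exact test removed the call of Gm23935. That of Gm23873 went from -0.01 to 0 with DESeq2 size factors and to 0.00206 with total counts. A minimum of 50 reads left 2 genes to test.

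The mean share of own-strand gene reads, 0.0204%, was 0.00393% over the genes that share under 20 nt with another microRNA gene and 0.00561% without Gm23935. Genes read in both libraries numbered 4 at 10 reads, 25 at 1 read and 2 at 50 reads. The opposite-strand share, 0.901%, was 0.473% without Gm23134. With 1 replicate left out, the share of reads ranged from 0.0174% to 0.0233%, the genes with 10 reads from 4 to 6, and the opposite-strand share from 0.792% to 1.01%. Counts were low at most of the genes with a read: 36 of the 42 had under 10 in each library. Only Gm23935 and Gm23450 reached 50 in one. Why the counts were low was not tested.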
